A study of Anas platyrhynchos with 18 samples.

Results

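The microRNAs (miRNAs) of duck skin at 4 weeks of age (4WK) were compared with those at day 15 of embryonic development (15EM), to set juvenile feather growth against embryonic feather growth. Members were all miRNAs with at least 1 CPM (the count times 1000000, divided by the library total of counts on miRNAs) in at least 2 of the 6 libraries of these stages, which gave 237 miRNAs of 326 with a count in these 6 libraries and of 353 with a count anywhere in the 17 libraries used. The birds were white Pekin ducks of similar genetic background, untreated and on standard feed after hatch, and the tissue was skin from the upper back, over the thoracic vertebrae. Each stage had 3 libraries, numbered 1 to 3 in the labels (written 4WK-1 to 4WK-3 and 15EM-1 to 15EM-3). The series holds 4 further stages (11EM, 20EM, 1 day after hatch or 1DB, and 10 weeks or 10WK), which shared the estimate of the spread between replicates. No duck miRNA list was used to make the counts: reads were matched to chicken miRNAs, so names and sequences are those of chicken, and a miRNA that duck does not share with chicken is not seen.

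A miRNA is a short RNA cut from a hairpin precursor and loaded into an Argonaute protein, where it lowers the translation and stability of messenger RNAs with sites that pair to its seed, the stretch of bases near its 5′ end. Members of a family share a seed and so can act on overlapping sets of messenger RNAs, and each hairpin has a 5p arm and a 3p arm, of which usually the more abundant is the one that acts. In skin, miRNAs are known from mouse work to act in the balance between division and differentiation of keratinocytes and in the growth cycle of the hair follicle; much less is established for the feather follicle.

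All 237 members matched a mature chicken sequence in the miRBase sequences supplied with the study. The sequences below are those on which the comparison turned, written 5′ to 3′ with the seed (bases 2 to 8) in capitals. The first set is the miR-29 family, with some of the largest rises at 4WK, and its members share the seed AGCACCA. The sequence of miR-29c-3p is that of miR-29a-3p without its last base, so reads of this pair may not be told apart.
miR-29a-3p: uAGCACCAuuugaaaucgguu
miR-29b-3p: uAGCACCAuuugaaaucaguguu
miR-29c-3p: uAGCACCAuuugaaaucggu

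The second set is the miR-146 family with the seed GAGAACU, in which miR-146a-5p and miR-146b-5p rose and miR-146c-5p, the most abundant of the family, did not pass the test. Counted from 1 at the 5′ end, miR-146b-5p differs from miR-146c-5p by A18G, G20A and G22U and by 1 further base at the 3′ end of miR-146c-5p.
miR-146a-5p: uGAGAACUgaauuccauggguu
miR-146b-5p: uGAGAACUgaauuccauaggcg
miR-146c-5p: uGAGAACUgaauuccauggacug

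The third set is the miR-130, miR-301 and miR-454 family with the seed AGUGCAA, shown because 4 of its 6 main arms fell at 4WK while miR-130c-3p and miR-301b-3p were shared between the stages.
miR-130a-3p: cAGUGCAAuauuaaaagggcau
miR-130b-3p: cAGUGCAAuaaugaaagggcgu
miR-130c-3p: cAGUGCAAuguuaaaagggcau
miR-301a-3p: cAGUGCAAuaauauugucaaagcau
miR-301b-3p: cAGUGCAAuaguauugucaaagcau
miR-454-3p: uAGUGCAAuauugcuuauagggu

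The fourth set holds pairs with a common seed whose members went apart: miR-205a and miR-205b (CCUUCAU, differing by U1C and G18A from miR-205a to miR-205b), let-7f-5p and let-7k-5p (GAGGUAG), and miR-30d and miR-30e-5p (GUAAACA, differing by C12U and C13U from miR-30d to miR-30e-5p over the length of the shorter sequence).
miR-205a: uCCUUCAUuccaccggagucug
miR-205b: cCCUUCAUuccaccggaaucug
let-7f-5p: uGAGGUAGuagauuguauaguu
let-7k-5p: uGAGGUAGuagauugaauaguu
miR-30d: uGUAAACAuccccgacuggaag
miR-30e-5p: uGUAAACAuccuugacugg

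The libraries of 4WK held 3512684 to 5500608 counts on miRNAs and those of 15EM 12107767 to 12705578, so that 3 counts, taken as the smallest amount that can be seen, correspond to 0.545 to 0.854 CPM at 4WK and 0.236 to 0.248 CPM at 15EM. Counts on miRNAs made up 18.3, 11.5 and 14.8% of the clean reads in 4WK-1 to 4WK-3, against 59.2, 64.5 and 58.3% in 15EM-1 to 15EM-3. The stages did not overlap in this share (exact permutation test, two-sided, p = 0.1, the smallest that 3 against 3 libraries can give). CPM and the fold changes below are therefore relative to the other miRNAs of a library, not to all small RNA. Among the 6 libraries, 4WK-1, 15EM-1 and 15EM-2 kept a larger share of raw reads as clean reads than the other 3, and this class is called the clean-read share below. Replicates of the same stage differed by a median absolute log2 difference of 0.26 (0.23 to 0.33 over 6 pairs of libraries), and libraries of different stages by 1.22 (1.07 to 1.32 over 9 pairs).

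The most abundant miRNAs were largely the same at both stages. Of the 10 most abundant at each stage, 8 were in common, namely miR-10a-5p, miR-10b-5p, miR-22-3p, miR-26a-5p, miR-27b-3p, miR-148a-3p, miR-181a-5p and miR-205a. The remaining places were held by miR-203a and miR-21-5p at 4WK and by let-7f-5p and miR-92-3p at 15EM. Of the 20 most abundant at each stage, 16 were in common. The 10 most abundant miRNAs took 66.9, 68.2 and 69.1% of the counts in the 4WK libraries, against 65.2, 65.4 and 67.9% in the 15EM libraries, and these ranges overlap (68.1 ± 1.09% against 66.2 ± 1.52%, SD, n = 3 each, exact permutation test, two-sided, p = 0.2). Between 5 and 6 miRNAs held 50% of the counts in each of the 6 libraries. Fewer miRNAs had a count at 4WK, with 258 to 261, than at 15EM, with 278 to 288, in libraries that were also shallower at 4WK.

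A miRNA was called different where edgeR gave an adjusted p under 0.05 with at least a 2-fold change, and shared where the 95% interval of its log2 fold change lay within 2-fold in either direction. Of the 237 members, 129 were called, 54 higher and 75 lower at 4WK, 50 were shared, and 58 were neither. Over the 252 miRNAs tested, 52.0% were called, 22.2% higher and 29.8% lower, and 19.8% were shared. After TMM scaling, the 3 libraries of 4WK lay wholly above those of 15EM for each of the 54 miRNAs called higher and wholly below for 74 of the 75 called lower, where over all tested miRNAs 31.3% had 4WK wholly above and 40.5% wholly below; the exception was miR-206. The median log2 fold change was 2.51 over those called higher, -2.26 over those called lower (both also with the miRNAs at 0 in a stage set to their limit), -0.29 over all members and -0.24 over all miRNAs tested. The fitted change was at least 8-fold in 18 called higher and 16 called lower. The 16 include miR-454-5p, which had no count at 4WK and a limit of at least 7.71-fold. They also include miR-206, whose log2 fold change was -1.44 without 15EM-1. Scaled to clean reads in place of counts on miRNAs, the median log2 fold change moved by -2.21, and 193 members were called, 17 higher and 176 lower, with 4 shared, and of the 54 called higher 31 stayed above 0 and 23 lay below 0, so the balance of rises and falls holds only relative to the miRNA pool.

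**Figure D1:**
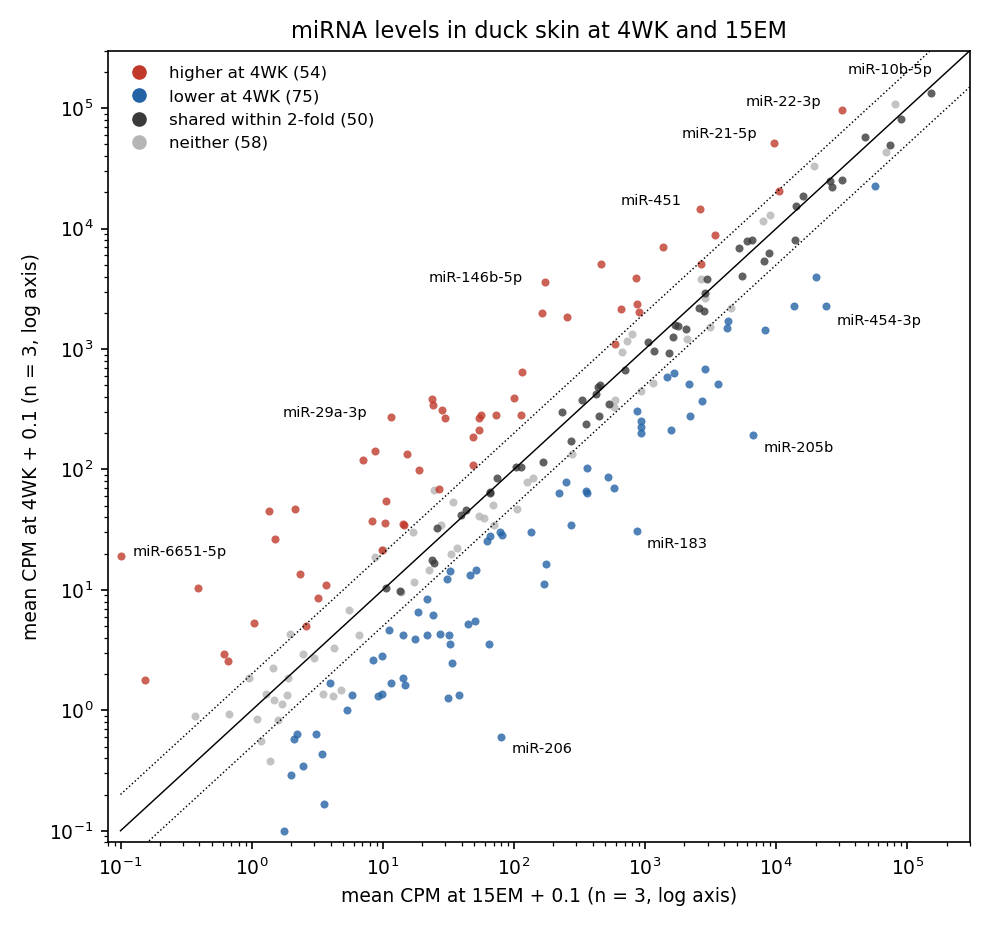
Mean CPM of the 237 members at 4WK (vertical axis) against 15EM (horizontal axis), both on log axes with 0.1 added, each point 1 miRNA coloured by its call in edgeR; the solid line marks equal levels and the dotted lines 2-fold. Shared miRNAs (50) lie along the line, with 54 higher and 75 lower at 4WK to either side, all relative to the miRNA pool.

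The miRNAs called higher took 23.4 ± 2.84% of the counts at 4WK, against 6.77 ± 0.262% at 15EM (SD, n = 3 each). Those called lower took 4.14 ± 0.735% at 4WK, against 16.5 ± 1.12% at 15EM. The 50 shared miRNAs took 49.8 ± 2.35% at 4WK and 55.8 ± 2.45% at 15EM. These shares were computed over miRNAs chosen by their change and are a description. Of the 68 members that averaged 1000 CPM or more, 15 were called higher, 15 lower, 27 shared and 11 neither. The shares over all miRNAs tested were 22.2% higher, 29.8% lower and 19.8% shared. To be shared a miRNA also needs a narrow interval, and the part of abundance in that was not tested.

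The shared miRNAs included several of the most abundant. The level of miR-10b-5p, encoded in a Hox cluster, was 126447, 135263 and 138326 CPM in the 4WK libraries, against 153752, 148451 and 152230 CPM in the 15EM libraries (log2 fold change -0.03, 95% interval -0.49 to 0.42). For miR-26a-5p the levels were 86731, 73037 and 82570 CPM at 4WK and 86369, 94732 and 88476 CPM at 15EM (-0.01, interval -0.25 to 0.24). The stages overlap for miR-26a-5p, and for miR-10b-5p the CPM were all lower at 4WK but overlap after TMM scaling. Others with narrow intervals were miR-148a-3p (-0.16, interval -0.49 to 0.16), let-7f-5p (-0.11, interval -0.45 to 0.23), miR-1559-5p (0.04, interval -0.26 to 0.33) and miR-146c-5p (0.12, interval -0.43 to 0.68). Groups with a majority of members shared included miR-30 (8 of 9 members shared, miR-30e-5p called higher) and the Hox-cluster miR-10 and miR-196 (3 of 5 shared, none called). Of the main and minor arms of let-7, 8 of 15 were shared, 3 called higher, 1 called lower and 3 neither. The 8 count let-7a-3p and let-7k-3p, which are identical in sequence, as separate members. Over all miRNAs tested 19.8% were shared, 22.2% called higher and 29.8% called lower. Of the 4 members from miR-199 and miR-214, known from mesenchymal cells, none was called and 3 were shared. Without 15EM-2 only 1 was shared, with miR-199-3p at -0.66 and miR-214 at -0.67. Both also left the shared range in limma and with library totals. The summed level of these 4 was 14422 ± 363 CPM at 4WK and 23586 ± 2436 CPM at 15EM (SD, n = 3 each), without overlap in CPM.

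Among the largest rises were those of the miR-29 family, known in mammals to act on messenger RNAs of collagens and other matrix proteins. The level of miR-29a-3p was 262, 282 and 268 CPM in the 4WK libraries, against 7.10, 14.3 and 12.9 CPM in the 15EM libraries. For miR-29c-3p the levels were 114, 115 and 128 CPM at 4WK and 4.79, 8.74 and 7.28 CPM at 15EM, and for miR-29b-3p they were 27.3, 51.1 and 57.5 CPM at 4WK and 0.909, 2.20 and 0.633 CPM at 15EM. Every 4WK library thus lay at least several-fold above every 15EM library for each of the 3 main arms. The log2 fold changes were 4.69 ± 0.29 for miR-29a-3p, 4.23 ± 0.28 for miR-29c-3p and 5.30 ± 0.42 for miR-29b-3p (SE, adjusted p in edgeR 2.85e-08, 3.55e-08 and 1.51e-07), and the last was 6.03 without 15EM-2. Of the 5 members of the family, 4 were called higher, against 22.2% over all miRNAs tested. Among the 4, the minor arm miR-29a-5p reached 1 CPM only in libraries of 4WK and so passed the threshold for members through that stage. The summed level over the 7 names of the family with a count was 441 ± 30.1 CPM at 4WK and 21.4 ± 6.42 CPM at 15EM (SD, n = 3 each). Per clean read the 3 main arms were still higher, with log2 fold changes of 2.52 for miR-29a-3p, 2.06 for miR-29c-3p and 3.06 for miR-29b-3p.

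**Figure D2:**
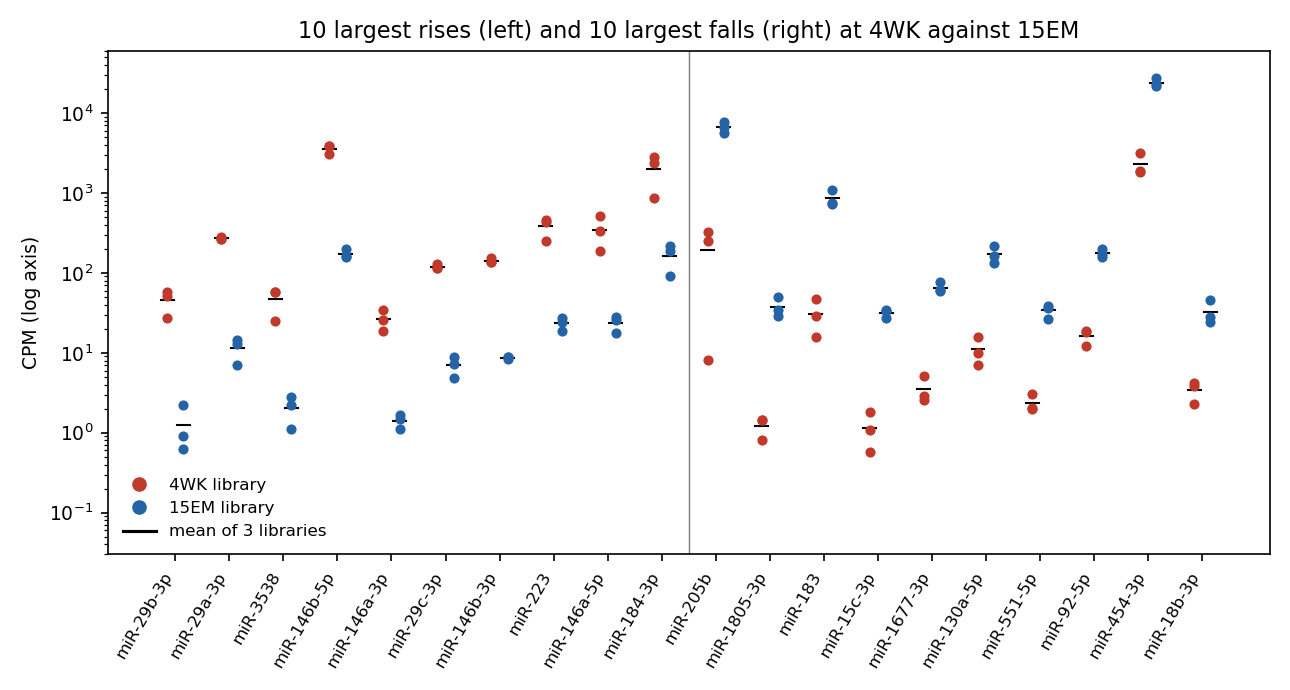
CPM on a log axis in each of the 3 libraries of 4WK (left of each pair) and 15EM (right of each pair) for the 10 miRNAs with the largest rises and the 10 with the largest falls whose mean reached 10 CPM and whose stages did not overlap; bars mark means of 3 libraries. The libraries of a stage lie close together for most of them, while miR-205b has 1 library of 4WK, at 8.08 CPM, far below the others of that stage.

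The members of the leukocyte list rose together with the exception of miR-146c. Of its 9 members (from miR-142, miR-146 and miR-223), 7 were called higher, 1 was shared and none was called lower. The remaining member, miR-146c-3p, was lower at 4WK by less than 2-fold (log2 fold change -0.90, adjusted p in edgeR 0.00153). It was called lower without 15EM-1 or 4WK-1. Over all miRNAs tested 22.2% were called higher. The list also named miR-155, which did not reach the threshold for members, so that 9 of 10 names with a count were members. miR-146a and miR-146b are known in mammals as brakes on inflammatory signalling through NF-κB, miR-142 is made throughout the blood cell lineages, and miR-223 is most abundant in granulocytes. The level of miR-146b-5p was 3864, 3858 and 3044 CPM in the 4WK libraries, against 198, 162 and 157 CPM in the 15EM libraries (log2 fold change 4.54 ± 0.26, SE). For miR-142-5p it was 4049, 8319 and 2875 CPM at 4WK and 503, 404 and 467 CPM at 15EM (3.62 ± 0.32), and for miR-223 it was 437, 460 and 248 CPM at 4WK and 24.6, 18.9 and 27.5 CPM at 15EM (4.16 ± 0.27). The stages lay far apart for all 3 of these miRNAs, and 4WK-3 was the lowest 4WK library for each. The adjusted p in edgeR was 1.61e-08 for miR-146b-5p, 3.76e-07 for miR-142-5p and 3.42e-08 for miR-223, and all 7 called members were also called higher per clean read. In contrast, miR-146c-5p stood at 29989, 24852 and 20216 CPM at 4WK and at 29425, 29443 and 18385 CPM at 15EM. It made up most of the summed level of the list, which was 35029 ± 6955 CPM at 4WK and 26742 ± 6363 CPM at 15EM, so the sum does not show the rise of the 7 called members. Without 4WK-3 miR-146c-5p was no longer shared. In whole skin, more cells of a type and more RNA per cell cannot be told apart, here and in the lists that follow.

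Markers of other cell types moved as well. The erythroid miR-451 rose to 13719, 12680 and 16886 CPM in the 4WK libraries, against 2277, 3163 and 2464 CPM in the 15EM libraries (log2 fold change 2.60 ± 0.34, adjusted p in edgeR 1.41e-05; 0.42 per clean read), whereas miR-144-3p, which in vertebrates is made from the same cluster, was at 386, 352 and 404 CPM at 4WK and 615, 638 and 532 CPM at 15EM and was not called (-0.49 ± 0.30). Of the 4 members of the red blood cell list, 2 were called higher, against 22.2% over all miRNAs tested. Birds keep nuclei in their red blood cells. Both arms of the endothelial miR-126 were called higher close to the 2-fold limit, miR-126-5p at 18776, 21643 and 21210 CPM in 4WK and 11098, 9035 and 11332 CPM in 15EM (1.12 ± 0.17), although both were lower at 4WK per clean read. Both calls were lost in limma and with library totals (0.97 for miR-126-5p and 0.94 for miR-126-3p in each), and miR-126-3p (1.08) stood at 0.99 without 15EM-2. Of the cartilage list, both arms of miR-140 were called higher (1.52 ± 0.42 for miR-140-3p and 1.46 ± 0.51 for miR-140-5p) and miR-455-5p lower (-1.34 ± 0.28), and both arms of miR-140 were below 0 per clean read. That is 2 of the 4 members of the list higher and 1 lower, against 22.2% and 29.8% over all miRNAs tested. Without 15EM-1 miR-140-5p was no longer called (1.36, adjusted p in edgeR 0.0617).

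Muscle miRNAs set 15EM-1 apart from its replicates. Their summed level was 6637, 5247 and 11249 CPM in 4WK-1 to 4WK-3, against 3937, 577 and 462 CPM in 15EM-1 to 15EM-3, so that 15EM-1 came near the 4WK libraries. Of the 14 names of this list with a count, 9 were members, from miR-1, miR-133, miR-206 and miR-499. Of the 9 members, 5 were called higher and 1 lower, against 22.2% and 29.8% over all miRNAs tested. Without 15EM-1, 8 were called higher and none lower. The miRNA with most of these counts, miR-133a-3p, stood at 6130, 4796 and 10218 CPM at 4WK and at 3170, 506 and 410 CPM at 15EM (log2 fold change 2.61 ± 0.57, adjusted p in edgeR 0.00161; 0.39 per clean read; 4.03 without 15EM-1). The member called lower was miR-206, which is known from developing and regenerating skeletal muscle, and it is named here after its values were seen. Its level was 0.404, 0.545 and 0.569 CPM at 4WK and 236, 0.551 and 2.37 CPM at 15EM, so the call rested on 15EM-1, and without that library the log2 fold change was -1.44 with an adjusted p in edgeR of 0.485, against -6.99 and 0.0116 with it. Leaving out 15EM-1 gave 132 called members in all, 58 higher and 74 lower, with 46 shared. The part of underlying muscle in other results was not tested.

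Of the 7 epidermal miRNAs, 3 were called higher and 1 lower at 4WK, against 22.2% and 29.8% over all miRNAs tested. miR-205 is among the most abundant miRNAs of stratified epithelia, and miR-203, in mouse, favours differentiation of keratinocytes by lowering p63. The level of miR-205a was 37906, 51166 and 40146 CPM in the 4WK libraries, against 59873, 77867 and 70116 CPM in the 15EM libraries, all lower at 4WK in CPM but overlapping after TMM scaling and not called (log2 fold change -0.55, 95% interval -1.12 to 0.03). That of miR-203a was 35293, 30935 and 33382 CPM at 4WK and 16489, 25632 and 16551 CPM at 15EM, all higher at 4WK and not called (0.91, interval 0.18 to 1.63). It was called higher in DESeq2 (1.06), with the filters of 10 CPM and of the 6 libraries (1.07 in each) and without 15EM-2, 4WK-2 or 4WK-3 (1.18, 1.11 and 1.05). Per clean read it was lower at 4WK (-1.26). Both arms of miR-31, which in mouse acts in the hair cycle, were called higher, with miR-31-5p at 3958, 4302 and 3353 CPM at 4WK and 800, 1196 and 544 CPM at 15EM (2.34 ± 0.25, adjusted p in edgeR 1.77e-06; 0.14 per clean read, where miR-31-3p was at -0.32). The largest rise of the list was in miR-184-3p, known from corneal and epidermal epithelium, with 872, 2790 and 2342 CPM at 4WK and 188, 90.7 and 214 CPM at 15EM (3.75 ± 0.51). Its 4WK libraries were spread over about a 3-fold range, with 4WK-1 the lowest, and still lay above every 15EM library.

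The largest fall by the same rule was in miR-205b, with 8.08, 323 and 248 CPM in the 4WK libraries, against 5678, 6597 and 7656 CPM in the 15EM libraries (log2 fold change -4.97 ± 0.69, adjusted p in edgeR 7.55e-05). The level in 4WK-1 was far below that in the other libraries of the stage, and 4WK-1 is the only 4WK library with the higher clean-read share. As a percentage of the near-identical miR-205a, miR-205b was 0.0213, 0.632 and 0.617% in 4WK-1 to 4WK-3, against 9.48, 8.47 and 10.9% in 15EM-1 to 15EM-3. In 10WK-1 to 10WK-3, which have the lower clean-read share, it was 0.614, 0.584 and 0.592%. The log2 difference was -9.28 between libraries with the higher clean-read share and -4.69 between those with the lower. Whether reads of miR-205a contribute to the counts of miR-205b was not tested.

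Members of the epithelial miR-200 family, which in mammals hold back ZEB1 and ZEB2, had 2 of 6 called lower, near the 29.8% over all miRNAs tested, 2 shared, 2 neither called nor shared and none called higher. The abundant arms miR-200a-3p (-0.31 ± 0.24) and miR-200b-3p (-0.16 ± 0.32) were shared, though not without 15EM-1 (-0.46 and -0.41), while miR-429-3p, at 1518, 1664 and 1399 CPM in 4WK and 2665, 3876 and 2857 CPM in 15EM, missed the 2-fold limit (-0.89 ± 0.28), which it passed without 15EM-1, in limma and with library totals. A larger change was seen in miR-183, known from sensory epithelia. It had 15.96, 47.4 and 29.0 CPM at 4WK and 736, 1099 and 755 CPM at 15EM, more than 10-fold apart in every pair of libraries (log2 fold change -4.67 ± 0.46, adjusted p in edgeR 1.83e-06).

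**Figure D3:**
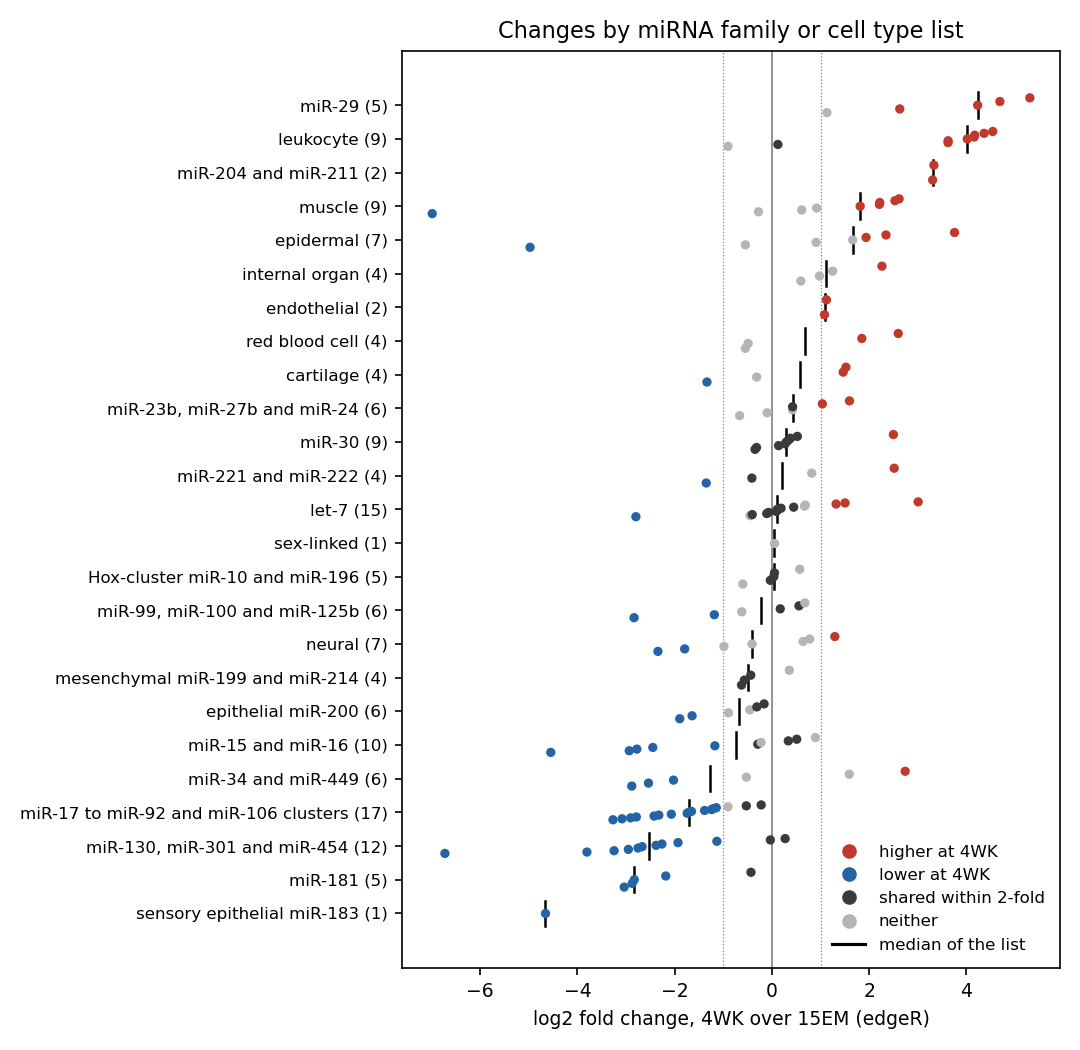
Log2 fold change of 4WK over 15EM (horizontal axis) for the members of each family or cell type list (rows, with the number of members), 1 point per miRNA coloured by its call, black bars at the median of the list and dotted lines at 2-fold. The lists of miR-29, leukocytes and miR-204 and miR-211 lie to the right and those of miR-130, miR-301 and miR-454, miR-181 and miR-183 to the left; per clean read all values lie further left by about the shift of the median, -2.21, so that 23 of the 54 rises turn below 0. The point of miR-454-5p near -6.7 is a fitted value against libraries without counts and no measured fold.

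Most members of the miR-17 to miR-92 and miR-106 clusters, which in mammals favour proliferation, fell. Of the 17 members, 14 were called lower, 2 were shared and none was higher, against 29.8% called lower over all miRNAs tested. When 1 library was left out, 12 to 14 were called lower. Among the 14, miR-19b-5p reached 1 CPM only in libraries of 15EM, and its call was lost without 15EM-2, 4WK-1, 4WK-2 or 4WK-3. The call of miR-17-3p was lost without 4WK-2 (-0.93). The summed level was 25772 ± 4757 CPM at 4WK and 65204 ± 7949 CPM at 15EM (SD, n = 3 each). Most of it was miR-92-3p, with 25355, 24930 and 16880 CPM in the 4WK libraries, against 49612, 55060 and 66060 CPM in the 15EM libraries (log2 fold change -1.21 ± 0.23, adjusted p in edgeR 0.000413; -0.89 without 4WK-3). The stages did not overlap, but 4WK-3 lay below its replicates. For miR-17-5p the levels were 567, 685 and 635 CPM at 4WK and 1725, 1665 and 1573 CPM at 15EM (-1.24 ± 0.12). The 2 shared members were miR-19a-3p and miR-19b-3p (-0.53 ± 0.17 and -0.22 ± 0.12), which have a seed of their own, and of which miR-19a-3p was no longer shared without 15EM-2, so the arms of these clusters did not move by 1 common factor.

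In the miR-130, miR-301 and miR-454 family 10 of 12 members were called lower, against 29.8% over all miRNAs tested. The other 2 were shared, against 19.8% over all. The summed level was 7685 ± 361 CPM at 4WK and 42671 ± 3391 CPM at 15EM. The most abundant member was miR-454-3p, which had 3166, 1868 and 1827 CPM in the 4WK libraries, against 21429, 22752 and 27704 CPM in the 15EM libraries (log2 fold change -3.25 ± 0.23, adjusted p in edgeR 4.67e-08). The stages differed by more than 6-fold in every pair of libraries. With the same seed, miR-130b-3p fell to 1467, 1391 and 1429 CPM at 4WK, against 8053, 8545 and 8199 CPM at 15EM (-2.38 ± 0.13), and miR-301a-3p and miR-130a-3p fell as well (-2.67 ± 0.19 and -1.93 ± 0.15). The remaining pair of this seed stayed level: miR-130c-3p had 1139, 1169 and 1143 CPM at 4WK and 1089, 1032 and 1054 CPM at 15EM (0.27 ± 0.12), and miR-301b-3p had 1044, 1612 and 2007 CPM at 4WK and 1938, 1712 and 1662 CPM at 15EM (-0.03 ± 0.20). The minor arm miR-454-5p had no count in the 4WK libraries and 1.65, 1.57 and 1.74 CPM in the 15EM libraries, at least 7.71-fold lower at 4WK when 3 counts over the 4WK group are taken as the limit. It is among the 10 called lower and passed the threshold for members through 15EM alone.

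The miR-15 and miR-16 family, which in mammals restrains the cell cycle, was split. Of its 10 members 5 were called lower, against 29.8% over all miRNAs tested, 3 were shared, against 19.8%, and none was called higher. Without 4WK-3 the calls of miR-16c-5p (-1.17, or -0.98 without it) and miR-16c-3p were lost, leaving 3 called lower. That of miR-16c-3p, which reached 1 CPM only in libraries of 15EM, was lost when any 1 of 5 libraries was left out. In addition, miR-15a was called higher without 4WK-2 or 4WK-3. The 10 members include 3p arms that do not have the family seed. The 5 members with the seed AGCAGCA comprised 2 called lower and 2 shared. The most abundant at 15EM was miR-15c-5p, with 2878, 2227 and 1682 CPM in the 4WK libraries, against 13616, 13909 and 13634 CPM in the 15EM libraries (log2 fold change -2.45 ± 0.17, adjusted p in edgeR 3.42e-08). The levels of miR-16-5p were 3730, 4269 and 3366 CPM at 4WK and 2916, 3062 and 2869 CPM at 15EM, higher in every 4WK library but by less than 2-fold (0.51 ± 0.17). The miRNA of this seed with the highest level was therefore miR-16-5p at 4WK and miR-15c-5p at 15EM. In the miR-181 family, best known from lymphocyte development, 4 of 5 members were called lower, against 29.8% over all miRNAs tested, and 1 was shared. The 4 were miR-181b-5p and the 3p arms miR-181a-3p, miR-181b-1-3p and miR-181b-2-3p, which do not have the family seed. By the seed ACAUUCA there were 2 members, 1 called lower and 1 shared. The main arm miR-181a-5p was shared at 55042, 46501 and 45832 CPM in 4WK and 79548, 74315 and 67609 CPM in 15EM (-0.43 ± 0.12), while miR-181b-5p fell to 5080, 3961 and 2883 CPM at 4WK, against 20806, 20372 and 19083 CPM at 15EM (-2.18 ± 0.17).

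The let-7 family, which rises as many animal tissues mature and acts against LIN28, showed rises in only part of its members. The 8 members with the let-7 seed comprised 2 called higher, near the 22.2% over all miRNAs tested, 4 shared, against 19.8%, and 2 between. Among them, let-7a-5p and let-7j-5p have identical sequences and cannot be told apart. The minor arms let-7a-3p and let-7k-3p, both shared, are also identical in sequence. Called higher were let-7k-5p, with 2056, 1463 and 1971 CPM in the 4WK libraries, against 298, 210 and 256 CPM in the 15EM libraries (log2 fold change 3.01 ± 0.19, adjusted p in edgeR 1.61e-08), and let-7b (1.32 ± 0.20), of which let-7b turned below 0 per clean read (-0.84) and let-7k-5p did not (0.86). The most abundant member, let-7f-5p, had 25984, 21682 and 19116 CPM at 4WK and 27430, 29914 and 22686 CPM at 15EM. The summed level of the 16 names of the let-7 list with a count was 54787 ± 7998 CPM at 4WK and 50690 ± 6662 CPM at 15EM, a difference smaller than the spread between replicates.

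Of the 90 members that share a seed with another member, in 32 seeds, calls went in both directions in 4 seeds and in 1 direction with at least 2 calls in 13 seeds. Over all miRNAs tested 52.0% were called. The 13 include the seed of miR-204 and miR-211, whose identical sequences fix the agreement. They also include that of miR-29, where miR-29a-3p and miR-29c-3p may not be told apart. The seeds with both directions were those of miR-34 and miR-449, of miR-221 and miR-222, of miR-1 and miR-206, and of miR-32 and miR-92. When 1 library was left out, 3 to 5 seeds had both directions. That of miR-34 and miR-449 dropped out without 4WK-1 or 4WK-3, that of miR-1 and miR-206 without 15EM-1 and that of miR-32 and miR-92 without 4WK-3. The seed of miR-15 and miR-16 was added without 4WK-2 or 4WK-3. In the first, miR-449a was called higher (log2 fold change 2.74, or 4.09 without 15EM-2) and miR-34c-5p lower (-2.54, a call lost without 4WK-1 at -2.15 or without 4WK-3 at -2.34). In the second, miR-222a fell to 1679, 1683 and 1152 CPM at 4WK, against 3636, 4237 and 4806 CPM at 15EM (log2 fold change -1.35 ± 0.19), while miR-222b-3p had 43.0, 215 and 36.2 CPM at 4WK and 15.5, 14.2 and 26.4 CPM at 15EM (2.51 ± 0.56), with 4WK-2 far above its replicates and a value of 1.36 without it.

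Abundant miRNAs outside these families also rose. The level of miR-22-3p was 83766, 101802 and 103964 CPM in the 4WK libraries, against 31533, 31337 and 32130 CPM in the 15EM libraries (log2 fold change 1.76 ± 0.13, adjusted p in edgeR 3.42e-08; -0.44 per clean read). That of miR-21-5p, which is raised in many healing and inflamed tissues of mammals, was 39385, 67414 and 48828 CPM at 4WK and 10186, 9080 and 9550 CPM at 15EM (2.58 ± 0.16, adjusted p in edgeR 1.61e-08; 0.35 per clean read). The stages did not overlap for either. The identical sequences of miR-204 and miR-211, known from pigment cells and the retinal pigment epithelium, cannot be told apart; miR-204 had 144, 329 and 336 CPM at 4WK and 33.7, 24.4 and 31.3 CPM at 15EM (3.33 ± 0.31). The cluster of miR-23b, miR-27b and miR-24 had 2 of 6 members called higher, near the 22.2% over all miRNAs tested, namely miR-23b-3p and miR-24-3p, both below 0 per clean read and the first under the 2-fold limit without 15EM-1, 15EM-2 or 4WK-1 (0.97, 0.97 and 0.99), and 1 shared. The group of miR-99, miR-100 and miR-125b had 2 of 6 called lower, near the 29.8% over all, both of them minor arms, and 2 shared, with miR-125b-3p under the limit without 4WK-2 (-0.93). The lists do not cover all members, and 52.0% of all miRNAs tested were called. Of the 129 called members, 44 were in none of the lists, 17 of the 54 higher and 27 of the 75 lower. Among them, miR-1805-3p fell to 0.808, 1.45 and 1.42 CPM at 4WK, against 50.5, 34.5 and 28.6 CPM at 15EM (-4.77 ± 0.35), and miR-3538 rose to 24.7, 58.0 and 57.8 CPM at 4WK, against 2.81, 2.20 and 1.11 CPM at 15EM (4.68 ± 0.66).

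Few members reached 1 CPM at only 1 of the stages. Of the 237 members, 191 reached 1 CPM in all 6 libraries, 6 reached it only in libraries of 4WK and 10 only in libraries of 15EM. Such members passed the threshold through the stage where they were higher, and the counts of calls given here include those that were called. At 4WK, 1 CPM lies close to the limit of 3 counts (0.545 to 0.854 CPM). Only miR-454-5p and miR-6651-5p had no count at a stage. The clearest was miR-6651-5p, with no count in the 15EM libraries and 7.68, 41.3 and 7.69 CPM in the 4WK libraries, at least 236-fold higher when 3 counts over the 15EM group are taken as the limit, or at least 95.9-fold without 4WK-2. Its level in 4WK-2 was several-fold that of its replicates, as was that of miR-1434 (3.64, 24.0 and 3.13 CPM at 4WK, against 0.165, 0.708 and 0 CPM at 15EM; log2 fold change 5.22, or 3.77 without 4WK-2). At the threshold for members, 7 miRNAs reached 1 CPM in exactly 2 libraries, among them miR-3528 with 3.27 and 1.42 CPM in 4WK-2 and 4WK-3 (log2 fold change 4.82, or 6.87 without 15EM-1). Another 9 miRNAs reached it in exactly 1 library and are not members, among them miR-124a-3p with 1.65 CPM in 15EM-1.

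The arms of a hairpin changed by different amounts in many cases. Of 53 hairpins whose arms both averaged 10 CPM or more, the log2 ratio of 5p to 3p counts differed by at least 2-fold in 24 (limma, adjusted p under 0.05), which is 45.3% of the hairpins tested, 13 towards 5p and 11 towards 3p at 4WK. Among the 24 was let-7k (difference 2.89), whose 3p arm has the same sequence as let-7a-3p, so its ratio may hold reads of let-7a as well. The 5p arms of let-7a and let-7j are also identical, and neither hairpin was among the 24. In 52 hairpins the same arm was the main arm at both stages. The main arm was further ahead of the minor arm at 4WK in 39 of these 52, by a median of 0.51 over all of them on the log2 scale, and in 20 of the 23 among them that passed the test. Some minor arms reached the mean of 10 CPM only through the stage where they were higher. Such arms were let-7c-3p (4.16 CPM at 4WK, 31.7 CPM at 15EM) and, the other way, miR-146a-3p (26.4 and 1.42 CPM). For these the filter favours the direction seen, so the counts of hairpins are a description. The largest difference was in miR-100, with log2 ratios of 8.47, 8.12 and 9.15 in the 4WK libraries, against 4.68, 5.28 and 5.15 in the 15EM libraries (difference 3.55 ± 0.25, SE, adjusted p in limma 9.28e-09). Here miR-100-3p was called lower, with 37.8, 39.1 and 25.9 CPM at 4WK and 292, 266 and 259 CPM at 15EM, and miR-100-5p was higher by less than 2-fold (0.68 ± 0.18). In miR-148a the difference was -2.57 ± 0.27 (adjusted p in limma 4.16e-07), with a shared main arm and a minor arm that fell. The only hairpin whose main arm differed was miR-551, with log2 ratios of -0.97, -1.41 and -1.45 at 4WK and 0.30, 0.61 and 0.64 at 15EM. Arm ratios are not affected by the scaling of a library.

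**Figure D4:**
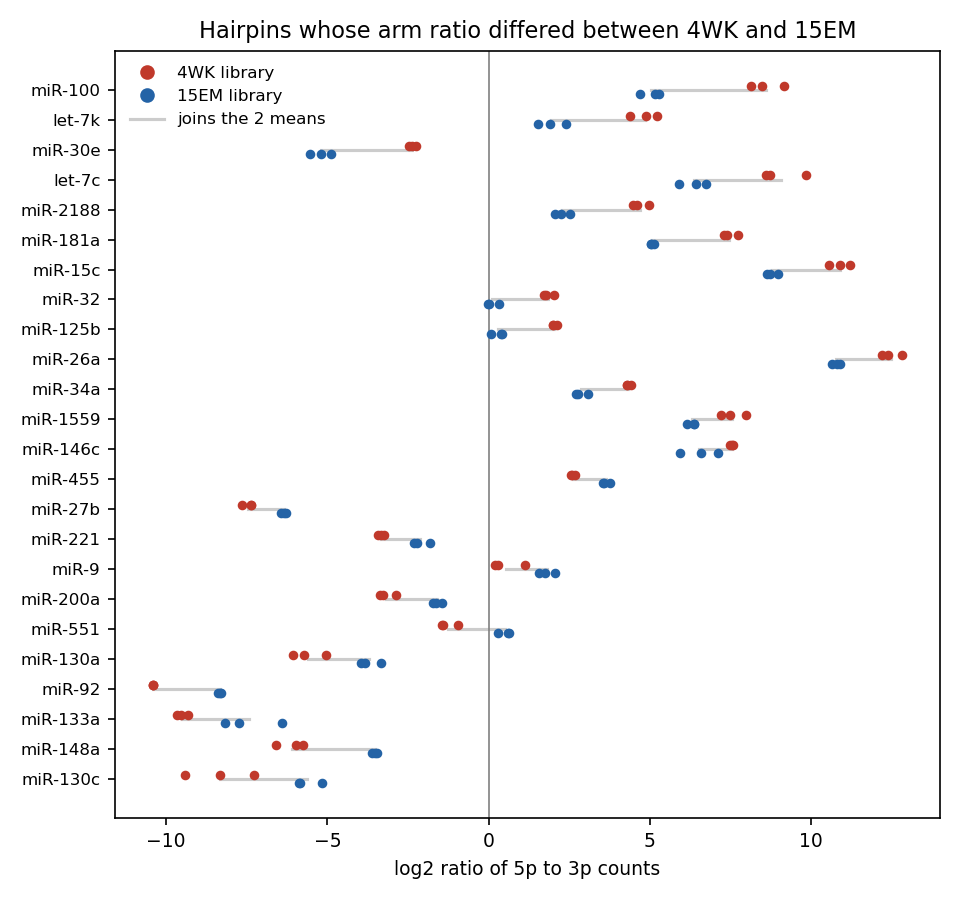
Log2 ratio of 5p to 3p counts (horizontal axis) in each library of 4WK (upper points) and 15EM (lower points) for the 24 hairpins that differed between the stages in limma; grey lines join the means and the vertical line marks equal arms. At 4WK the points lie further from the vertical line on the side of the main arm for most hairpins, and only miR-551 crosses it. The 3p reads of let-7k cannot be told from those of let-7a.

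The levels at the other stages are given as a description. Set against 15EM as medians of the log2 ratio of stage means (CPM plus 0.5), the 75 miRNAs called lower stood at 0.08 in 11EM, -0.91 in 20EM, -2.15 in 1DB skin, -2.11 in 4WK skin and -2.61 in 10WK skin. The 54 called higher had medians of 0.34 for 11EM, 0.46 for 20EM, 1.17 for 1DB, 2.16 for 4WK and 2.05 for 10WK. The median of the falls was thus about the same 1 day after hatch and at 4 weeks, while that of the rises was lower at 1 day. The 50 shared miRNAs kept a median between -0.35 and 0 at every stage. Over all 237 members the medians were 0.02, -0.24, -0.44, -0.43 and -0.58 in the same order of stages. The values at 4WK follow from the choice of the sets, and those of every other stage share the 15EM libraries that chose them as denominator, so none is independent of that choice. No test was made between stages.

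**Figure D5:**
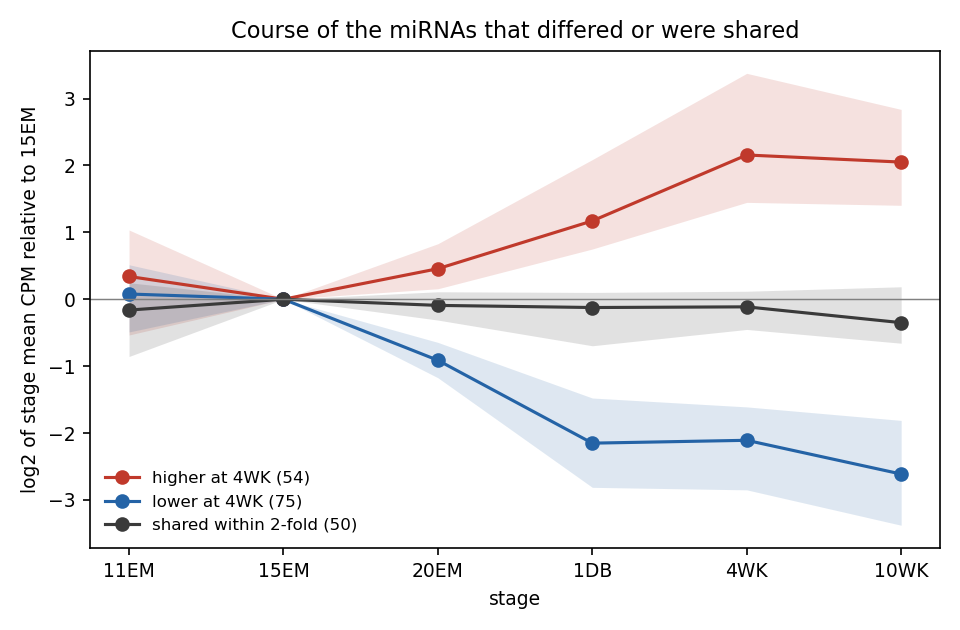
Median log2 ratio of stage mean CPM (plus 0.5) to that at 15EM (vertical axis) over the 6 stages in order of age (horizontal axis), for the miRNAs higher at 4WK, lower at 4WK and shared, with bands from the lower to the upper quartile over miRNAs. The lower set reaches -2.15 at 1DB and -2.11 at 4WK, the higher set 1.17 at 1DB and 2.16 at 4WK, both relative to the miRNA pool.

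Libraries that took no part in the comparison gave similar directions. Between 10WK and 11EM, 47 of the 54 miRNAs called higher had a positive log2 fold change, where 43.7% of all miRNAs tested did, and 72 of the 75 called lower had a negative one, where 56.3% of all did. Over the same 252 miRNAs 58.7% were called between 10WK and 11EM in either direction. In the same direction 34 of the 54 were called, against a background of 23.8% called higher, and 60 of the 75, against 34.9% called lower. The libraries of 10WK and 11EM entered the estimate of spread in the common fit but not the levels compared. Opposite calls were made for 4 miRNAs, namely miR-499-5p, miR-499-3p and miR-1329-5p, called higher at 4WK and lower at 10WK, and miR-34a-3p, called lower at 4WK and higher at 10WK. For miR-499-5p the log2 fold change was 2.22 at 4WK over 15EM, or 3.30 without 15EM-1, and -2.43 at 10WK over 11EM. The calls at 4WK were lost for miR-499-3p without 15EM-2 or 15EM-3 (1.52 and 1.44) and for miR-1329-5p when any 1 of 4 libraries was left out (1.02 to 1.12).

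A male-biased miRNA of chicken, miR-2954, is encoded on the Z chromosome and varied within both stages. It stood at 3369, 3934 and 623 CPM in the 4WK libraries and at 3992, 738 and 3881 CPM in the 15EM libraries, so that each stage had 1 low library (log2 fold change 0.04 ± 0.77). The labels give no sex for the birds, and the balance of low and high libraries was the same at both stages. No members were found from the embryonic stem cell miRNAs miR-302 and miR-367, whose summed level was 0 CPM at 4WK and at most 0.165 CPM at 15EM. Of the neural list, miR-9-5p fell to 55.2, 82.4 and 54.1 CPM at 4WK, against 395, 301 and 386 CPM at 15EM (-2.35 ± 0.22, adjusted p in edgeR 3.98e-07), miR-124c-3p was called lower (-1.80; -1.55, -1.74 and -1.44 with the call lost without 15EM-1, 4WK-2 or 4WK-3) and miR-153-3p higher, and 4 of its 7 members were not called. Over all miRNAs tested 52.0% were called in either direction. The internal organ list held 4 members. Its 10 names with a count had a summed level of 53.1 ± 9.69 CPM at 4WK and 27.4 ± 3.46 CPM at 15EM. Of the 4 members, 1 was called higher, near the 22.2% over all miRNAs tested. This was miR-194, at 1.01, 3.82 and 2.56 CPM in 4WK and 0.578, 0.708 and 0.396 CPM in 15EM (2.26), which reached 1 CPM only in libraries of 4WK. Without 4WK-2 it stood at 1.90, with an adjusted p in edgeR of 0.0653.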

How the data were processed

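Small RNA of duck skin was sequenced by the authors on an Illumina HiSeq after TruSeq library preparation. Per the methods of the study, reads were trimmed, reads under 18 nt were dropped, other noncoding RNA was removed with up to 2 mismatches, and the rest was matched with CLC Genomic Workbench and BLAST to the chicken miRNAs of miRBase 21. The deposited values are raw counts per mature arm of each hairpin, and they do not separate exact from inexact matches. Identical and near-identical miRNAs can share reads.

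Counts of the same mature name were added up. Summed levels of a list cover all its names with a count, members or not. Libraries were grouped by the stage in their labels, and 17 were used, since replicate 2 of 20EM was not analysed here. The labels do not say whether the replicates of a stage come from separate birds, so p-values measure only the spread between these libraries. The 252 miRNAs that reached 1 CPM in 2 or more of the 17 libraries were fitted in edgeR 4.0.16 (R 4.3.3, TMM scaling, quasi-likelihood test, 6 stage groups, two-sided, Benjamini-Hochberg adjustment over all of them). Standard errors and 95% intervals are Wald intervals from that fit. Arm ratios, log2 of (5p + 0.5) over (3p + 0.5), were tested in limma 3.58.1. The scripts were tested on simulated data. Named miRNAs are the 10 largest rises and falls averaging 10 CPM or more without overlap, the 10 most abundant, the 10 shared ones with the values nearest 0 among the abundant, up to 3 of each list by level, the arm ratios with the largest difference, and others that counts refer to. The members and lists were chosen with earlier results of these data known. Clean reads, used as an alternative scale, are from the read table supplied with the study. Other alternatives were DESeq2 1.42.0, limma on log2 CPM with 0 set to 0.01, library totals, other filters and thresholds, the 6 libraries alone, a replicate block, the clean-read share as covariate, and leaving out each replicate in turn.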

Additional observations from a re-analysis of the deposited data

How the results depend on the processing

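Scaling decided how many miRNAs stood on each side. With clean reads as library size 17 members were called higher and 176 lower, and 4 were shared, where TMM scaling gave 54, 75 and 50. The share of the 10 most abundant miRNAs differed by -30.0 percentage points as a percent of clean reads, against 1.89 as a percent of counts. Of the 54 members called higher 23 lay below 0 per clean read, and the log2 fold changes that turned negative, called or not, included those of miR-10a-5p (-1.58), miR-22-3p (-0.44), miR-203a (-1.26), let-7a-5p (-1.47), miR-15a (-1.29), miR-100-5p (-1.48), miR-24-3p (-0.60), miR-23b-3p (-1.13), miR-221-3p (-1.39), miR-133c-3p (-0.051), miR-499-5p (-0.012), miR-2188-5p (-0.30), miR-126-5p (-1.07), miR-126-3p (-1.11), miR-140-3p (-0.66), miR-140-5p (-0.75), miR-219b (-1.55), miR-215-5p (-1.24), miR-194 (-0.0093) and miR-2954 (-2.13). Of the other alternatives, a fold change of at least 4 left 80 called, 44 of them lower, an interval within 1.5-fold left 18 shared, and arms of at least 100 CPM left 10 hairpins, each by the stricter limit itself. DESeq2 called 135 members, limma 128, library totals 133, the 6 libraries alone 126, no filter 125, a filter of 10 CPM in 3 libraries 111 and the clean-read share as covariate 126. Leaving out 1 library at a time gave 120 to 132 calls (51 to 58 higher, 64 to 76 lower), 43 to 53 shared, 23 to 25 hairpins and 1.38 to 2.76 percentage points for the 10 most abundant. In this way 24 of the 129 called members lost their call at least once, 7 called higher and 17 called lower. Among them were miR-34c-5p without 4WK-1 or 4WK-3 (-2.15 and -2.34), miR-23b-3p without 15EM-1, 15EM-2 or 4WK-1, and miR-126-3p without 15EM-2. Others were miR-125b-3p without 4WK-2, miR-140-5p without 15EM-1, miR-194 without 4WK-2 and miR-92-3p without 4WK-3. The call of miR-206 was also lost in limma and with the replicate block. Further calls lost in limma included miR-18b-3p, miR-34c-5p and miR-194 (adjusted p in limma 0.0665, 0.111 and 0.0547) and miR-23b-3p (log2 fold change 0.89). With the 6 libraries alone, the calls of miR-133c-3p (adjusted p in edgeR 0.0894) and miR-23b-3p (0.99 on the log2 scale) were lost.

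The 15EM and 4WK libraries cannot share a bird, since the skin came from embryos at 15EM and from slaughtered ducks at 4WK. Whether the replicate numbers pair the libraries in any other way cannot be settled from 3 libraries per stage. Deviations of 4WK and 15EM libraries with the same number correlated at 0.03, -0.01 and -0.21. Those with unlike numbers ranged from -0.19 (4WK-2 and 15EM-1) to 0.32 (4WK-2 and 15EM-3). A replicate block gave 128 calls (54 higher, 74 lower), 52 shared and 24 hairpins. Of the 52 members with a mean under 10 CPM, 22 were neither called nor shared, against 58 of all 237 members. The part of depth in this was not tested. Limits taken from 3 counts cover counting error only.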
